A study of Arabidopsis thaliana with 4 samples.

Results

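The genes described here build or control the secondary wall, the thick inner wall of water-conducting and supporting plant cells. The set was drawn up from gene function. It comprised 3 cellulose synthases (CESA4, CESA7, CESA8), the NAC transcription factors NST1 and SND1, the MYB transcription factors MYB46 and MYB83, the lignin monomer enzyme CCOAOMT1 and the laccases LAC4 and LAC17. Members were found by gene code. Of the 10, 7 had a row among the 29971 loci, and CESA4, CESA8 and LAC17 were not analysed here. Levels were FPKM, sequenced fragments per transcript length and library size, in whole siliques (the seed pods) of unmodified Arabidopsis thaliana Col-0 plants grown in long days. The youngest fruits (stage 1) were 0 to 5 days past flower opening, those of stage 2 were 6 to 10 days old, those of stage 3 were 11 to 15, and the oldest (stage 4) were 16 to 20. Each stage had 1 library, so every difference describes these libraries and has no replicate check and no test.

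In Arabidopsis, NST1 and SND1 (also called NST3) are NAC master switches of secondary wall formation, and in the fruit they act in the lignified layers that make the pod shatter: the valve margin and the inner layer of the valve. They act upstream of MYB46 and MYB83, which in turn activate genes for cellulose, xylan and lignin. CESA4, CESA7 and CESA8 together form the complex that spins secondary wall cellulose, CCOAOMT1 methylates lignin precursors, and LAC4 and LAC17 couple monolignols into lignin in the stem. A whole silique also holds seeds and vascular tissue, so a value here is a sum over tissues, and fewer cells of a type cannot be told apart from less RNA per cell.

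Promoter windows of 250 bases before the RefSeq gene start (build TAIR10.1) were searched for 8 letter strings bound by MYB46 and MYB83 and their relatives: the AC elements ACCTACC and ACCAACC and ACCTAAC, and the variants ACCAAAC and ACCTAAT and ACCAAAT and ACCAACT and ACCTACT, on both strands. Of the 7 members, 2 held any of them, against 29.4% of 27443 promoters. Those windows, CCOAOMT1 at chr4:16310159-16310408 on the plus strand and MYB83 at chr3:2578277-2578526 on the minus strand, are shown 5′ to 3′ along the gene because they were the members with a match, which stands in capitals.
CCOAOMT1: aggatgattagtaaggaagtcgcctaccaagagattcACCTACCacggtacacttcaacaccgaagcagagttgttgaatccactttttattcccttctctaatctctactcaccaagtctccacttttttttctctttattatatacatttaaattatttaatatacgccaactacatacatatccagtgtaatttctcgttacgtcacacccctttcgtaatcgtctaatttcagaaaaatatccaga
MYB83: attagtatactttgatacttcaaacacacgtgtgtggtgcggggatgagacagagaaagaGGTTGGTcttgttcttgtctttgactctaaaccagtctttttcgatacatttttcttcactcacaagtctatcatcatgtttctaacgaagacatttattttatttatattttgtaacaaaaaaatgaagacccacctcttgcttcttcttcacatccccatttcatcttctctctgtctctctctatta
The CCOAOMT1 match is ACCTACC, at positions -213 to -207 from the start, a string that 1.16% of promoters held. In MYB83 the match is ACCAACC on the opposite strand, at positions -190 to -184, and 2.69% of promoters held that string. Positions count from the RefSeq starts: the locus measured here began 366 bases further downstream for CCOAOMT1 and 30 bases for MYB83. At least 1 of the 3 AC elements stood in 6.12% of promoters.

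The secondary wall NAC binding element, a degenerate motif of 19 letters, occurred in 6 of the 7 member windows, all but SND1, and in 42.6% of all promoters. Its counts in the other gene lists are given under Other observations. The CESA7 window, chr5:5741501-5741750 on the minus strand, is shown because it belongs to the one cellulose synthase measured here, with its matches in capitals.
CESA7: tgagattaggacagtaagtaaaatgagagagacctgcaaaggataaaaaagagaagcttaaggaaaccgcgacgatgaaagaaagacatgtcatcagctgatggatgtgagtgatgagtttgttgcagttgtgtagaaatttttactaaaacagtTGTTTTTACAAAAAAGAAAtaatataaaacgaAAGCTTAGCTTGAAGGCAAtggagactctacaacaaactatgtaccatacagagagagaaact
These matches are letters in a window, and nothing was measured about binding.

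SND1 (AT1G32770, chr1:11865328-11867147, minus strand, TAIR10) stood at 0.599, 5.07, 4.29 and 1.43 FPKM in stages 1 to 4. Its level was low in the youngest fruits, high in stages 2 and 3 and low again in stage 4. The limit for calling a gene higher or lower was a difference of 1 or more in log2(FPKM + 1) between stages, with an FPKM of 1 or more in the higher stage and neither value listed at 0. By that rule SND1 rose from stage 1 to stage 2 by 1.93 on the log2 scale and fell by 1.12 from stage 3 to stage 4.

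NST1 (AT2G46770, chr2:19219903-19222916, minus strand) stood at 2.68, 6.51, 3.01 and 1.52 FPKM, with its single high value in stage 2. It rose by 1.03 on the log2 scale from stage 1 to stage 2, a 2.43-fold ratio of FPKM. The later differences, -0.91 and -0.67, fell short of the limit. The ratio of SND1 to NST1 was therefore not constant: NST1 had the higher FPKM in stages 1, 2 and 4, and SND1 in stage 3.

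MYB46 (AT5G12870, chr5:4062724-4064992, minus strand) stood at 1.45, 2.90, 0.987 and 0.990 FPKM. Its highest library was stage 2, as for the NAC pair, but with differences of 0.67 and -0.97 it passed the limit in neither neighbouring comparison. Its close relative MYB83 (AT3G08500, chr3:2576794-2578246, minus strand) stood at 1.01, 0.439, 0.0505 and 0.0441 FPKM. As deposited its highest value was in the youngest fruits, unlike that of MYB46. With equal FPKM sums both were highest in stage 2, and the MYB83 difference between stages 2 and 1 was 0.015 on the log2 scale, so this contrast depends on the scaling. Relative to fruit wall markers, introduced further on, MYB83 was highest in stage 1. The MYB83 values stood for few reads: at most 78.9, 53.3, 4.18 and 3.23 fragments in stages 1 to 4, if the whole span of 1453 bases were transcript. Its difference between stages 4 and 1 was -0.95, short of the limit, and no fold is given for it. Both MYB genes were among the lowest members, with MYB83 above 43.3% of all loci in its highest stage and MYB46 above 51.2% in its own.

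CESA7 (AT5G17420, chr5:5736630-5741465, minus strand), a subunit of the secondary wall cellulose synthase, stood at 8.37, 23.5, 9.49 and 6.57 FPKM. Stage 2 was the single high library. The gene rose by 1.39 on the log2 scale from stage 1 to stage 2, 2.81-fold in FPKM, and fell by 1.22 from stage 2 to stage 3. The 3′ end of CESA7 overlaps that of AT5G17410, on the opposite strand, by 66 bases, and the library kit does not mark strand. AT5G17410 stood at 11.6, 8.45, 6.59 and 7.15 FPKM, with no high value in stage 2. No other member overlapped another locus.

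CCOAOMT1 (AT4G34050, chr4:16310775-16312216, plus strand), the methyltransferase of lignin monomer synthesis, was the most abundant member in every library, at 94.3, 274, 621 and 214 FPKM. Its highest library was stage 3, not stage 2, and there it exceeded 99.5% of all loci. It rose by 1.53 and then by 1.18 on the log2 scale and fell by 1.53 from stage 3 to stage 4. In FPKM these steps were 2.91-fold and 2.26-fold higher, then 2.90-fold lower.

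LAC4 (AT2G38080, chr2:15934460-15937616, plus strand), a laccase of lignin polymerisation, followed neither pattern. It stood at 16.7, 24.9, 9.94 and 21.9 FPKM, as deposited with its lowest value in stage 3, the stage in which CCOAOMT1 was highest. It fell by 1.24 on the log2 scale from stage 2 to stage 3 and rose by 1.07 from stage 3 to stage 4. With equal FPKM sums its lowest value was in stage 1 and its highest in stage 4. On that scale the same 2 differences were -1.11 and 1.89.

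**Figure D1:**
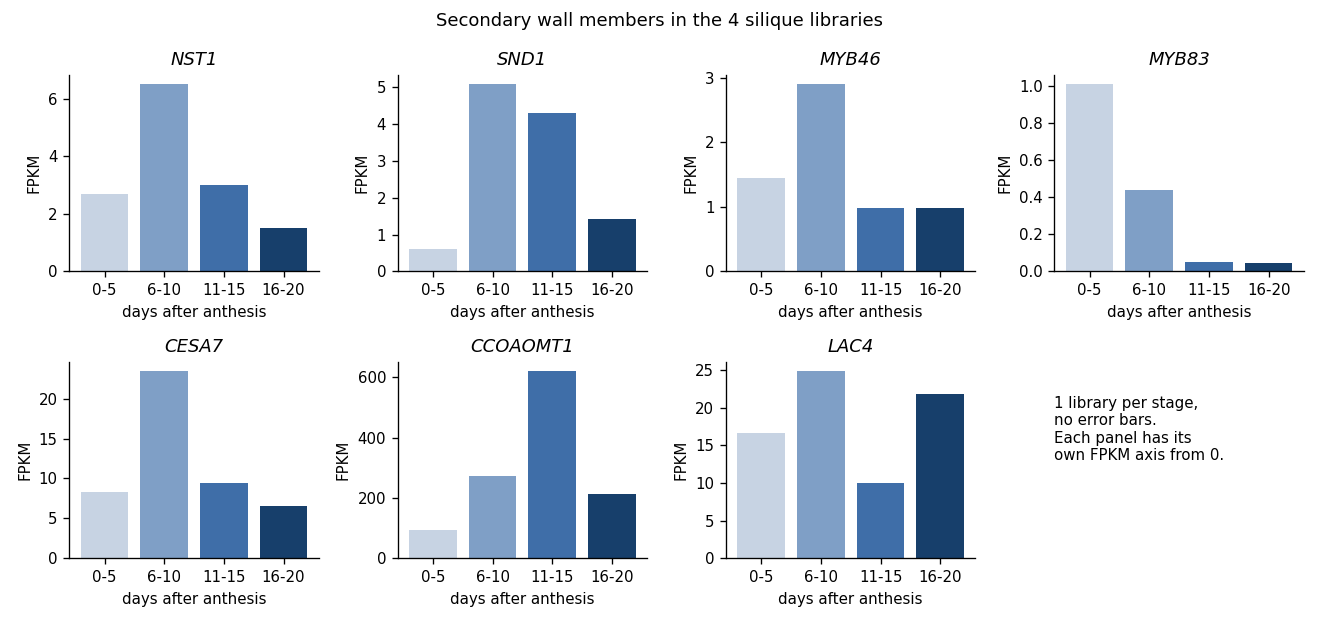
FPKM (vertical axes) of the 7 members in the library of each stage, given as days after anthesis. Each bar is 1 library, so there are no error bars. CESA7, NST1, SND1, MYB46 and LAC4 have their highest bar in stage 2, CCOAOMT1 in stage 3 and MYB83 in stage 1, as deposited.

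Counted together, 4 of 7 members were higher in stage 2 than in stage 1 (CESA7, NST1, SND1 and CCOAOMT1) and 0 lower, where 11.8% of all loci were higher and 15.3% lower. With libraries scaled to equal FPKM sums, 6 of 6 members tested were higher, with MYB46 and LAC4 added and MYB83 under the FPKM limit, beside 53.4% of all loci. From stage 2 to stage 3, of 6 members tested, 1 rose (CCOAOMT1) and 2 fell (CESA7 and LAC4), beside 13.1% and 11.9% of all loci. From stage 3 to stage 4, of 5 tested, 1 rose (LAC4) and 2 fell (SND1 and CCOAOMT1), beside 5.52% and 6.42%. Between the end points, stages 4 and 1, CCOAOMT1 alone of 7 was higher and 0 were lower, beside 20.7% and 22.6%. Members left out of a comparison had both values under 1 FPKM. Neighbouring comparisons share a library, so a high stage 2 value enters both of the first 2 with opposite sign.

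The median difference over the members tested was 1.03, -0.94, -0.67 and -0.30 in these 4 comparisons, and that over all loci lay between -0.01 and 0.01. The stage of the highest FPKM was stage 1 for 1 member, stage 2 for 5, stage 3 for 1 and stage 4 for 0; with equal FPKM sums the counts were 0, 5, 1 and 1. Over the 18947 loci that reached 1 FPKM in some stage, the shares were 35.7%, 19.4%, 20.4% and 24.5%. With equal FPKM sums, 1504, 2771, 1061 and 13611 of these loci were highest in stages 1 to 4.

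FPKM is relative to its library, and what the libraries held differed. Loci shorter than 300 bases made up 78.5%, 63.1%, 45.1% and 6.78% of the summed FPKM in stages 1 to 4. SESA1, a seed storage protein gene, stood at 2.27, 228, 16562 and 16931 FPKM, and OLEO1, an oil body gene, at 3.63, 256, 11565 and 15738, and both together made up 1.68% and 3.47% of the summed FPKM in stages 3 and 4. As deposited, 43.7%, 52.5%, 46.2% and 47.8% of the loci that passed the limit were higher in the later stage, in the 4 comparisons in the same order. With libraries scaled to equal FPKM sums these shares were 92.2%, 60.5%, 91.8% and 93.8%, and the median of all loci moved by 1.06, 0.14, 0.76 and 1.94 on the log2 scale. With equal sums over loci of at least 300 bases, they were 70.3%, 31.7%, 50.5% and 52.8%. No called member changed direction under either scaling or a median ratio scaling. The same held for the 43, 51 and 19 listed genes called between neighbouring stages, while 7 of 53 called between stages 4 and 1 reversed, all with equal FPKM sums. The median ratio factors, 1.01, 0.990, 0.995 and 0.996 in stages 1 to 4, were too near 1 to turn a called difference.

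As a second yardstick, the members were divided by the geometric mean FPKM of 5 fruit wall and valve margin markers, the regulators FUL, SHP1, IND, ALC and RPL. The list held 6 markers, of which SHP2 had no row. That mean was 31.5, 36.2, 29.6 and 28.1 FPKM, and as deposited none of the 5 passed the limit in any of the 4 comparisons. From stage 1 to stage 2, ALC differed by 0.96 and RPL by -0.63. With equal FPKM sums all 5 were higher in stage 4 than in stage 1, by 1.51 (RPL) to 2.55 (SHP1), beside 76.3% of all loci. The highest of the 5 markers were ALC, a regulator of the separation layer, at 52.2, 102, 71.2 and 50.6 FPKM, and SHP1, a valve margin regulator, at 45.0, 62.0, 47.2 and 58.0. Relative to this mean, CESA7 stood at 0.266, 0.649, 0.321 and 0.233 and NST1 at 0.0850, 0.180, 0.102 and 0.0542, both still highest in stage 2. CCOAOMT1 stood at 3.0, 7.59, 21.0 and 7.60 times the markers, highest in stage 3. SND1 stood at 0.0190, 0.140, 0.145 and 0.0508, so that stages 2 and 3 were nearly level and their order turned. LAC4 stood at 0.531, 0.689, 0.336 and 0.778, and its highest stage became stage 4.

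**Figure D2:**
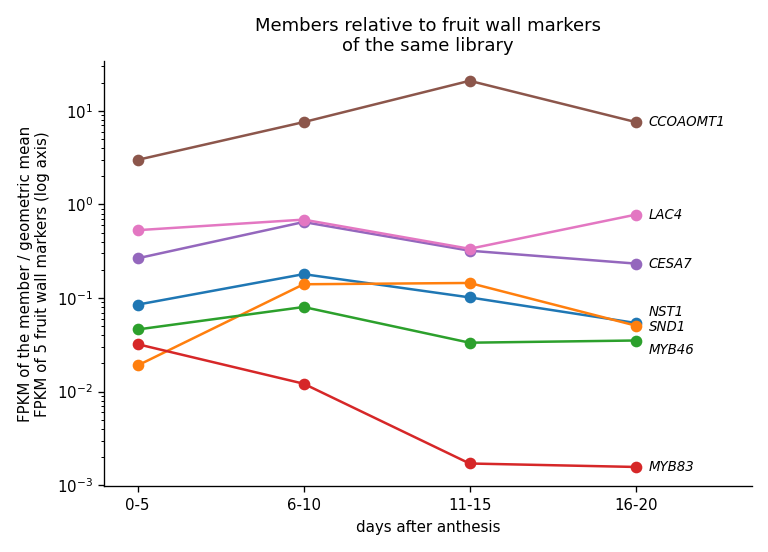
FPKM of each of the 7 members divided by the geometric mean FPKM of 5 fruit wall markers in the same library (log axis), by days after anthesis; each point is 1 library. CESA7, NST1 and MYB46 stay highest in stage 2 and CCOAOMT1 in stage 3, while SND1 is level over stages 2 and 3 and LAC4 is highest in stage 4.

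The rest of the pathway was read from lists of its genes. The rises and falls counted in every list below are to be set against the shares of all loci. These were 11.8% higher and 15.3% lower from stage 1 to stage 2, and 13.1% and 11.9% from stage 2 to stage 3. From stage 3 to stage 4 they were 5.52% and 6.42%. Most genes named below follow a rule on level and size of difference, while the following were chosen after their values were seen: TED6, IRX10, GUX1, 4CL2, LAC3, LAC7, PRX4, PRX25, NST2, SND2, VND1, VND2, VND4, VND5, VND6, VND7, TTG2, MYB103, MYB26, MYB52, MYB54, MYB58, MYB63, MYB69, MYB85 and MYB4.

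Among 4 accessory genes of secondary wall cellulose, 2 rose and 1 fell from stage 1 to stage 2. COBL4, a membrane-anchored COBRA-like protein, stood at 5.53, 21.1, 4.95 and 5.36 FPKM, and CTL2, a chitinase-like protein, at 15.6, 63.0, 33.7 and 32.8. Both were highest in stage 2, as CESA7 was, and COBL4 fell again to stage 3. TED6, a partner of the complex in vessel cells, stood at 42.5, 12.3, 5.76 and 3.32 FPKM and was highest in stage 1. The membrane endoglucanase gene KOR1, which also serves the primary wall, stood at 137, 177, 198 and 108 FPKM and passed the limit in no neighbouring comparison.

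Of the 7 other cellulose synthases, which make primary wall and seed coat cellulose, 1 rose and 0 fell from stage 1 to stage 2. From stage 2 to stage 3 the counts were 1 and 0, and from stage 3 to stage 4 they were 0 and 0. Of all loci, 11.8% rose and 15.3% fell in the first comparison, 13.1% and 11.9% in the second and 5.52% and 6.42% in the third. CESA1 stood at 169, 99.6, 144 and 111 FPKM and CESA3 at 168, 146, 159 and 122, both several times the level of CESA7 in every library. The rise to stage 2 was that of CESA10, at 4.55, 106, 96.0 and 49.9 FPKM, and the rise to stage 3 that of CESA9, at 2.21, 2.57, 11.9 and 7.95. Neither fell past the limit from stage 3 to stage 4.

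Of 18 listed genes for the synthesis of xylan, the hemicellulose of the secondary wall, 16 had a row. From stage 1 to stage 2, 5 of the 16 rose and 0 fell. From stage 2 to stage 3, 1 rose and 4 fell. Of all loci, 11.8% rose and 15.3% fell in the first comparison and 13.1% and 11.9% in the second. GUX2, which adds glucuronic acid side groups, stood at 1.11, 27.6, 11.6 and 2.50 FPKM. IRX15, needed for normal xylan length, stood at 3.18, 12.6, 6.31 and 5.01 FPKM. The backbone gene IRX10, at 10.4, 23.0, 9.98 and 8.17 FPKM, also had its single high value in stage 2. FRA8, of the xylan end sequence, was highest in stage 3, at 11.4, 15.2, 37.7 and 25.3 FPKM. RWA2, an acetylation gene, was highest in stage 1, at 47.4, 35.9, 20.9 and 20.9 FPKM, and its fall between stages 4 and 1 reversed with equal FPKM sums. By stage of highest FPKM the list split 5, 9, 2 and 0 over stages 1 to 4. With equal FPKM sums, which put 2771 of 18947 loci highest in stage 2 and 13611 in stage 4, the list split 0, 8, 0 and 8. Its median differences between neighbouring stages were 0.44, -0.66 and -0.28, the last positive (0.48) with equal FPKM sums.

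Of 17 lignin monomer genes listed, 15 had a row. Their stage of highest FPKM split 2, 3, 8 and 2 over stages 1 to 4. Most were in stage 3, as for CCOAOMT1. With equal FPKM sums, which put 1061 of 18947 loci highest in stage 3 and 13611 in stage 4, they split 0, 3, 3 and 9. With equal sums over loci of at least 300 bases, which put 7758 loci highest in stage 2 and 2426 in stage 3, these genes split 0, 7, 6 and 2. Their median differences between neighbouring stages were 0.61, 0.25 and -0.46, the last positive (0.34) with equal FPKM sums. From stage 1 to stage 2, 3 of 15 rose and 0 fell, beside 11.8% and 15.3% of all loci. From stage 2 to stage 3, 5 rose and 1 fell, beside 13.1% and 11.9%. PAL4, an entry enzyme of the phenylpropanoid pathway, stood at 7.48, 14.1, 138 and 41.2 FPKM. COMT1, a second methyltransferase, stood at 43.2, 66.4, 199 and 147 FPKM, and CSE, the caffeoyl shikimate esterase, at 59.6, 170, 213 and 119. Together with 4CL2, at 3.96, 14.0, 40.0 and 17.8 FPKM, they shared the stage 3 maximum of CCOAOMT1. The single fall was 4CL3, an isoform tied to flavonoids, at 22.2, 19.1, 1.18 and 1.74 FPKM.

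**Figure D3:**
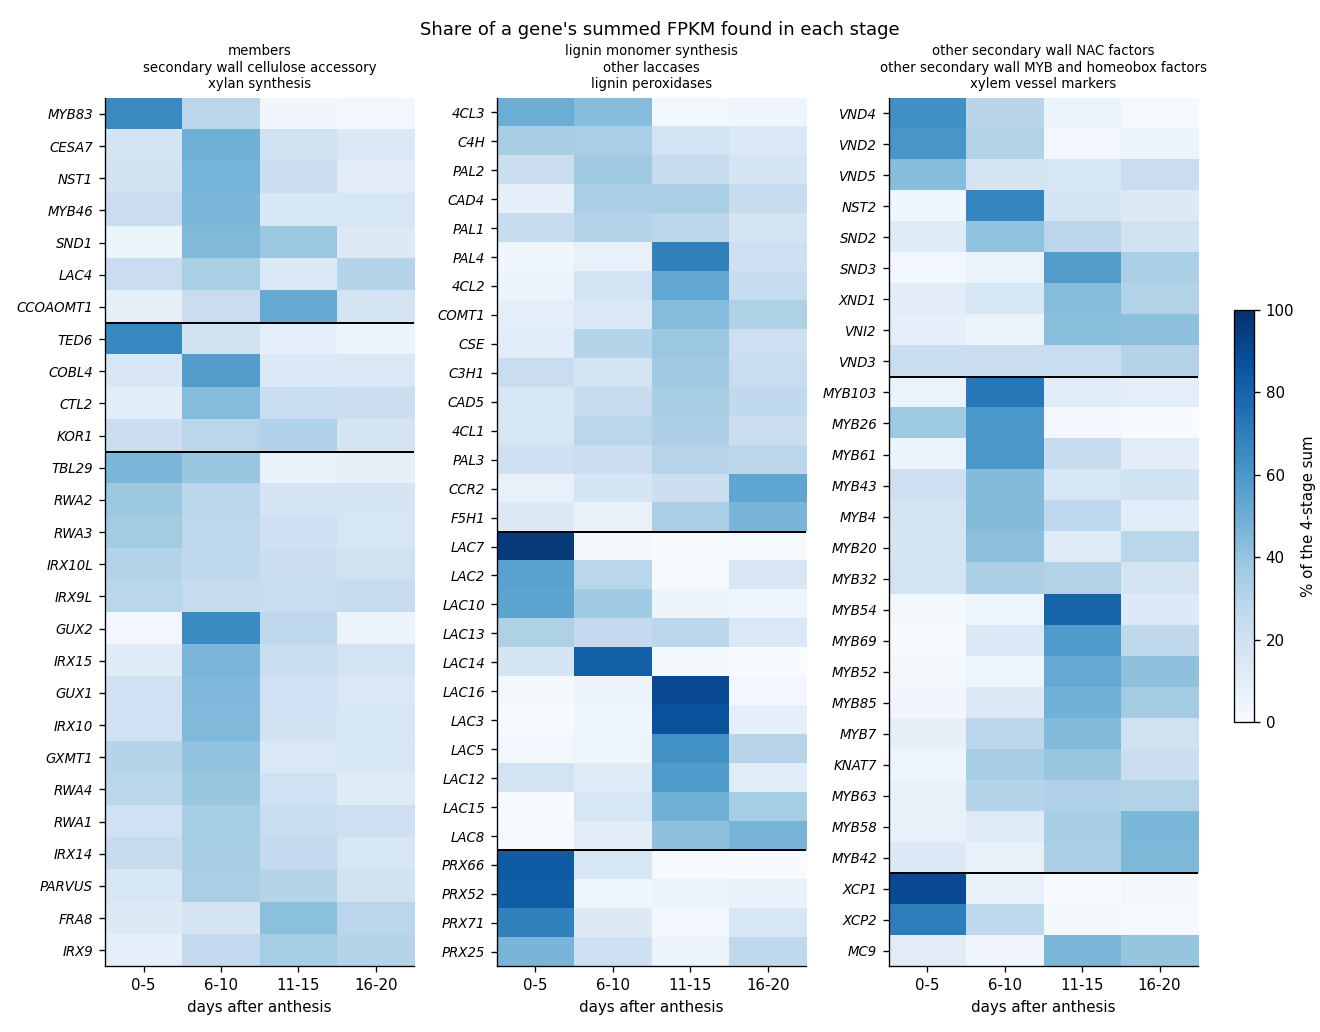
Share of each gene's summed FPKM over the 4 libraries that falls in each stage, for the members and the listed pathway genes; columns are stages and colour is the share in percent. CESA7 and NST1 carry their largest share in stage 2, CCOAOMT1 in stage 3 and MYB83 in stage 1.

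Among the other laccases, 14 of 15 listed genes had a row. Of 10 tested from stage 2 to stage 3, 6 rose and 3 fell, while LAC4 fell in the same comparison. LAC15 (TT10), which oxidises flavonoids in the seed coat and is also on the seed coat list, stood at 1.18, 126, 388 and 280 FPKM. LAC5 stood at 9.58, 15.7, 198 and 93.0 FPKM, and LAC3, a laccase of the Casparian strip in roots, at 0.0857, 0.870, 18.8 and 1.90. LAC7 was highest in stage 1, at 9.31, 0.188, 0.0267 and 0.130 FPKM. LAC4 was the highest laccase among these in stage 1, and LAC5 and LAC15 were far above it in stages 3 and 4.

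Of 8 lignin peroxidases listed, 7 had a row. PRX52, PRX66 and PRX71 were high in stage 1, and the other 4 stayed under 2 FPKM in every library. All 4 that reached 1 FPKM had their highest value there as deposited, 2 of them with equal FPKM sums, and 3 of 4 tested fell from stage 1 to stage 2, with 0 rises. PRX52 stood at 67.2, 3.12, 5.03 and 6.29 FPKM, PRX66 at 40.2, 7.70, 0.289 and 0.169, and PRX71 at 51.7, 9.96, 2.07 and 11.6. The difference of PRX71 between stages 4 and 1 turned slightly positive with equal FPKM sums.

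**Figure D4:**
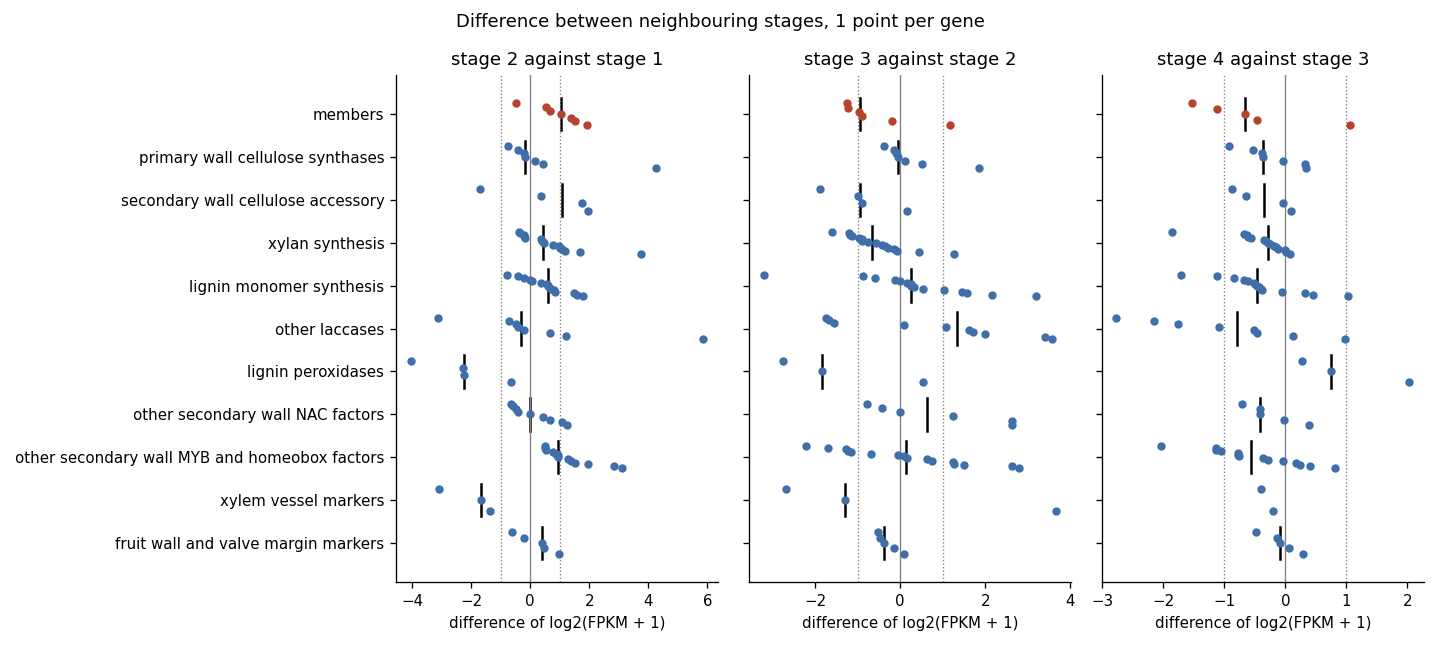
Difference of log2(FPKM + 1) between neighbouring stages for the members and the genes of each list; each point is 1 gene, dotted lines mark the limit of 1 in either direction, and the short black bars are list medians. CESA7, NST1, SND1 and CCOAOMT1 lie above the limit from stage 1 to stage 2, and CESA7 and LAC4 lie below it from stage 2 to stage 3.

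Of 9 other NAC factors tested from stage 1 to stage 2, 2 rose and 0 fell, beside 11.8% and 15.3% of all loci. Of 6 tested from stage 2 to stage 3, 3 rose and 0 fell, beside 13.1% and 11.9%. NST2, the close relative of NST1, stood at 0.0672, 1.25, 0.308 and 0.238 FPKM, highest in stage 2 but far below NST1 in every library. SND2, which acts downstream of SND1, stood at 1.49, 4.94, 3.44 and 2.34 FPKM. SND3, another NAC factor downstream of SND1, was highest in stage 3, at 0.881, 1.98, 17.5 and 10.3 FPKM. VNI2, a repressor that binds the vessel regulator VND7, stood at 25.3, 17.6, 115 and 113 FPKM. VND3 shares a locus with AT5G66290, and the joint value, 16.3, 16.2, 16.3 and 21.6 FPKM, cannot be assigned to either gene.

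Of 13 other MYB and homeobox factors tested from stage 1 to stage 2, 6 rose and 0 fell, and of 16 tested from stage 2 to stage 3, 5 rose and 5 fell. MYB61 stood at 4.87, 49.1, 19.6 and 8.40 FPKM and MYB103 at 0.406, 4.48, 0.707 and 0.597, both with the stage 2 maximum of NST1 and CESA7. MYB4, a repressor of phenylpropanoid genes, was also highest there, at 17.3, 43.0, 26.2 and 11.3 FPKM. KNAT7, a homeobox regulator of the secondary wall, stood at 9.15, 70.7, 79.9 and 46.1 FPKM.

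A second set of MYB genes had its highest value in stage 3, with MYB52 at 0.542, 1.17, 12.4 and 10.0 FPKM, MYB54 at 0.277, 0.628, 10.3 and 1.76, MYB69 at 0.0181, 0.772, 3.22 and 1.49 and MYB85 at 0.538, 1.95, 7.38 and 5.47. The lignin activators MYB58 and MYB63 stood at 2.36, 3.71, 10.3 and 14.0 and at 1.12, 4.49, 4.82 and 4.70 FPKM. MYB26, which acts upstream of NST1 in the anther, stood at 2.83, 4.52 and 0.20 FPKM and was listed at 0 in stage 4. By stage of highest FPKM the 16 factors split 0, 7, 7 and 2, or 0, 5, 3 and 8 with equal FPKM sums. On that scale 2771, 1061 and 13611 of 18947 loci were highest in stages 2, 3 and 4.

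**Figure D5:**
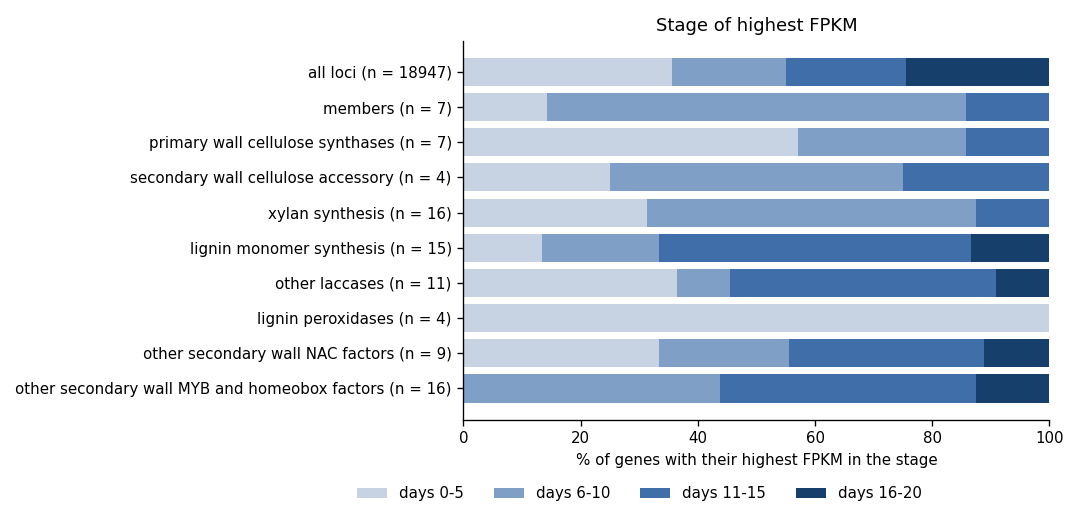
Share of the genes of each list, in percent, whose highest FPKM fell in each stage, beside the 18947 loci that reached 1 FPKM in some stage. List genes under 1 FPKM in every stage are left out, and every other gene counts once. Stage 2 holds 5 of 7 members and 9 of 16 xylan genes, and stage 3 holds 8 of 15 lignin monomer genes, as deposited; with equal FPKM sums that last count is 3.

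As deposited, MYB83 and several genes of xylem vessels were highest in stage 1. With equal FPKM sums MYB83, VND2 and VND4 were highest in stage 2, while VND6, VND7, XCP1 and XCP2 were still highest in stage 1. VND1 and VND5, highest in stage 1 as deposited, were highest in stage 4 on that scale. The vessel master switches VND6 and VND7 stood at 0.911, 0.242, 0.0164 and 0 FPKM and at 0.727, 0.240, 0.114 and 0.10, and VND4 at 1.57, 0.722, 0.159 and 0.0356. The vessel proteases XCP1 and XCP2 stood at 23.4, 1.84, 0.167 and 0.576 FPKM and at 32.9, 12.3, 1.08 and 0.581. Of the 5 vessel markers, VND6 and VND7 included, 3 were tested from stage 1 to stage 2 and all 3 fell, and the list's sum was 106, 29.1, 198 and 171 FPKM. MC9, a metacaspase of vessel cell clearance, fell in that comparison and then stood high, at 48.1, 14.5, 196 and 170 FPKM. The part of vessel tissue in the MYB83 values was not tested.

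Markers of other tissues moved between the same libraries. All 4 seed coat markers rose from stage 1 to stage 2, as CESA7, NST1 and SND1 did, and from stage 2 to stage 3, 2 of 4 fell and 1 rose, TT10 (LAC15), from 126 to 388 FPKM. Their summed level was 117, 734, 457 and 308 FPKM. BAN, a flavonoid reductase gene of the seed coat, stood at 77.3, 360, 42.4 and 15.3 FPKM, and TT3, of the same pathway, at 34.8, 237, 20.6 and 9.11. TTG2, a seed coat regulator, ranked 27 of 14326 in likeness to the CESA7 profile by the measure given at the end. The rest of the seed coat list lay far from CESA7, with BAN at rank 10352, TT3 at 10632 and TT10 at 14148. All 5 seed markers rose from stage 1 to stage 2 and 4 of 5 from stage 2 to stage 3, with sums of 6.57, 593, 28344 and 32872 FPKM. Both pollen markers, AGP11 at 149, 4.16, 1.15 and 0.708 FPKM and AGP6 at 120, 3.39, 3.06 and 4.21, were highest in stage 1, as MYB83 was on the deposited scale. No marker of these 3 lists was listed at 0. The part of seed, seed coat or pollen RNA in the member values was not tested.

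Profiles were ranked by their likeness to CESA7 over the 4 stages, as the root mean square distance between values of log2(FPKM + 1), each gene centred on its own mean. Ranked were 14326 single-gene loci that reached 5 FPKM in some stage and were not listed at 0, so MYB46 and MYB83 have no rank. In this ranking, the nearest was HEMA1, of chlorophyll synthesis, at a distance of 0.040, followed by AT5G61330, AT3G01690, NGA4, AT4G21570, AT3G48410, AT1G10090, AT4G22390 and AT5G55950. The xylan backbone gene IRX10 (GUT2) was rank 10, at 0.136. Of the other members, NST1 was rank 13, SND1 rank 1960, LAC4 rank 3310 and CCOAOMT1 rank 10326. The pathway lists were spread widely. GUX1, a relative of GUX2, was rank 18, but GUX2 was rank 10002 and FRA8, the farthest xylan gene, rank 10233. The accessory genes of cellulose were at rank 90 (COBL4), 974 (CTL2), 1247 (KOR1) and 11961 (TED6). With 4 points a close profile is common and says nothing of shared function.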

How the data were processed

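Per the labels' protocols, DNase-treated silique RNA went into TruSeq libraries, a kit that keeps no strand, for paired-end HiSeq sequencing. TopHat, Cufflinks, Cuffdiff and the TAIR10 build are listed in the submitters' processing notes; versions and settings are not given in the sources used here. FPKM per Cufflinks locus were deposited by the authors, 1 value repeated for each gene of the locus; 30915 rows reduced to 29971 loci. Stages follow the stage label of each sample, which differs in places from the day limits in the growth protocol.

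No count model was used, since FPKM are normalized. Differences were taken on log2(FPKM + 1), which understates the change of low genes; a call needed 1 in size, 1 FPKM or more on the higher side and no value listed at 0. Members, lists and rules were chosen with earlier results of these data known. Named by rule were the members and, from each list, the 2 genes highest in any stage, the 2 with the largest called difference between neighbouring stages, any gene listed at 0 in some stages and at 5 FPKM or more in another, and the 10 nearest profiles. Profile likeness was planned against CESA4, CESA7 and CESA8 and used CESA7. The search for the NAC element was added after the plan. Protein identities were not computed.

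Low FPKM values fell on steps corresponding to 66.5, 103.5, 70.5 and 62.5 M fragments (M, mega) in stages 1 to 4, under the plain FPKM formula with transcript length less 280 bases; 71.4% to 79.5% of low values lay within 0.2 of a whole fragment. Step and offset were chosen on the same values. A fragment on 1500 bases was then worth 0.0123, 0.00792, 0.0116 and 0.0131 FPKM. In RefSeq TAIR10.1, 28733 single-gene loci were found by code, 28732 overlapping their gene; promoters were cut from that genome. The counting rule was run on simulated data with planted changes and sampling noise alone. Such a run cannot show whether calls from 1 library per stage would repeat. Work used Python 3.11.15, numpy 2.4.6, pandas 2.3.3 and matplotlib 3.10.9. Alternatives were pseudocounts of 0.1 and 5, FPKM minimums of none and 5, 3 scalings, a 4-fold limit, zeros kept and Pearson likeness.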

Additional observations from a re-analysis of the deposited data

How the results depend on the processing

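No paired analysis was possible because each stage has 1 library, and no replicate could be left out. Of the member counts reported, 4 higher and 0 lower from stage 1 to stage 2 became 1 lower with a pseudocount of 0.1, 2 higher with a pseudocount of 5, and 6 higher with equal FPKM sums. From stage 2 to stage 3, the 2 lower became 4 with 0.1 and 1 with 5, and 1 higher and 2 lower became 0 and 4 with equal FPKM sums over loci of at least 300 bases. From stage 3 to stage 4, 1 higher and 2 lower became 0 and 1 with a pseudocount of 5; the number lower was 1 with an FPKM minimum of 5 and 0 with equal FPKM sums. Between stages 4 and 1, 1 higher and 0 lower became 2 and 1 with 0.1, and 4 were higher with equal FPKM sums. A 4-fold limit left 0 higher and 0 lower in all 4 comparisons, where SND1 came nearest, at 1.93 from stage 1 to stage 2. Equal FPKM sums took the median of the members to 2.17 from stage 1 to stage 2, 0.080 from stage 3 to stage 4 and 1.71 between stages 4 and 1, and equal sums over longer loci took the first to 1.62; in the first and last of these comparisons MYB83 was under the FPKM limit and 6 members were left. Between stages 4 and 1, equal sums took the peroxidase median to 0.076, over a set that PRX4 (1.16) had joined. PRX4 was under the FPKM limit as deposited. The 4 peroxidases tested on both scales stood at 0.88 (PRX25), 0.076 (PRX71), -1.13 (PRX52) and -3.92 (PRX66), so the sign of that median depended on PRX4. Equal sums reversed the genes RWA2 (1.03), PRX71 (0.076) and TT3 (0.29), which the naming rule covers. They also reversed RWA3 (0.97), RWA4 (0.92), C4H (0.92) and LAC2 (0.25). Median ratio scaling and zeros kept moved 0 of 218 results by 1.5-fold or more. Neither could move much. The median ratio factors were 1.01, 0.990, 0.995 and 0.996 in stages 1 to 4, and keeping zeros leaves the difference of every gene already tested unchanged. Of the 10 profiles nearest to CESA7, 8 were shared with a pseudocount of 0.1 and 1 with Pearson likeness. Apart from what is stated here, the cause of these moves was not tested. Depth limits values near or below 1 FPKM, such as those of MYB83, MYB46, the vessel NAC genes and SND1 in stage 1 (0.599).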

Other observations

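MYB elements of the kind found in CCOAOMT1 and MYB83 were counted in the promoters of every list. Of the 15 lignin monomer genes, 9 held any of the 8 strings and 4 an AC element. Among 14 other laccases the counts were 11 and 4, against 29.4% and 6.12% of all promoters. Of 16 xylan genes, 7 held any string and 0 an AC element, and of 12 NAC genes the counts were 1 and 0. The 4 accessory genes of cellulose synthesis held 0. Of 7 other cellulose synthases 3 held any string, of 7 peroxidases 3, of 16 MYB and homeobox factors 6, and of these 1 in each list held an AC element. The marker lists were as high in part. Any string stood in 3 of 4 seed coat markers, 3 of 5 fruit wall markers, 2 of 5 vessel markers, 1 of 5 seed markers and 0 of 2 pollen markers. An AC element stood in 1 seed marker and 0 of the others. The marker lists share genes with the pathway lists: VND6 and VND7 are also among the NAC genes, and TT10 is LAC15. The NAC element, held by 42.6% of promoters, stood in 3 of 4 accessory genes, 10 of 16 xylan genes and 5 of 15 lignin monomer genes. Among 14 other laccases it stood in 7, among 7 peroxidases in 1 and among 7 other cellulose synthases in 3. Of 12 NAC genes 4 held it, and of 16 MYB and homeobox factors 6. In the marker lists, 4 of 5 vessel, 3 of 5 fruit wall, 2 of 4 seed coat, 2 of 5 seed and 1 of 2 pollen markers held it. These are counts of letters in windows of 250 bases, with no test of a difference between lists.

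Ranked by likeness to CCOAOMT1, a second reference chosen after seeing the data, the nearest profiles were AT4G01870, at a distance of 0.022, AT3G56230 and the NAC factor gene NAC075, at 0.109. Of listed genes picked after seeing their ranks, MYB7, a relative of MYB4, was rank 27, 4CL2 rank 48, CSE rank 94 and CAD4, a lignin alcohol dehydrogenase, rank 258. MYB7 stood at 3.13, 10.8, 17.2 and 7.71 FPKM and CAD4 at 6.87, 25.9, 25.7 and 17.9. Of the 10 nearest, 4 were shared with a pseudocount of 0.1 and 2 with Pearson likeness.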
